A study of Homo sapiens with 3 samples.

Results

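FOXA2 binding was examined around 4 genes of the TLE corepressor family, TLE1, TLE2, TLE3 and TLE4, in Caco2 cells. Caco2 is an established human colorectal adenocarcinoma line often taken as a stand-in for intestinal epithelium. The sites were taken from the authors' peak lists of 2 replicate FOXA2 immunoprecipitations, each called against the 1 input library of the same cells, which had no antibody. All 3 libraries came from Caco2 cells grown in low-glucose medium with serum, with no treatment named in the labels, so the comparisons here are between sites and between replicates, and the line is a tumour line and not normal intestine. Replicate 1 held 26183147 tags and 63949 peaks. Replicate 2 held 15756702 tags and 26907 peaks. Nothing in the labels tells separate cultures from repeats of one, so the spread between the replicates may be technical.

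A peak belonged to a TLE gene when its midpoint fell in an interval of hg19 fixed for that gene. The intervals covered 69840 to 70490 kb of chromosome 15 for TLE3, 84148 to 84355 kb of chromosome 9 for TLE1, 2947 to 3098 kb of chromosome 19 for TLE2 and 82136 to 82392 kb of chromosome 9 for TLE4. The TLE3 interval was drawn wide because it holds 2 of the 10 strongest sites that the replicates share, so it was chosen by the deposited scores, which are a description here and were not tested. Within it, TLE3 itself runs from 70340 to 70390 kb on the minus strand. Together the intervals held 50 of the 63949 peaks of replicate 1 and 28 of the 26907 peaks of replicate 2. Each of these 28 overlapped a replicate 1 peak by at least 1 bp, which gave 28 shared sites out of 24345 in all.

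TLE proteins are the human counterparts of Drosophila Groucho. They do not bind DNA on their own but are brought to genes by sequence-specific factors, among them the TCF and LEF factors of the Wnt pathway, the HES and RUNX factors and the FOXA factors, and they repress transcription there with the help of histone deacetylases. FOXA2 is a forkhead factor of endoderm-derived tissues that can bind its sites in compacted chromatin, and its preferred sequence is built on the core TGTTT.

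The sequences just before the starts of the TLE genes are shown because peaks lay near the start edge of TLE3 and near assumed start marks of TLE1, TLE2 and TLE4. These marks, 50 kb inside the interval edges, are not the true starts. A shared site lay 0.948 kb before the TLE3 edge, and others 3.64 kb inside the TLE1 mark and 2.72 kb inside the TLE4 mark. At TLE2 the peak was of replicate 1 alone and scored 4. The sequences are the 250 bases before the most upstream start listed by RefSeq on GRCh38.p14, written 5′ to 3′ along the gene. Capitals mark every match, on either strand, to the core TGTTT, which reads AAACA on the other strand, or to 1 of 4 forkhead sequences of 7 letters. These are TGTTTAC as well as TGTTTGC, which contain the core, and TATTTAC as well as TATTTGC, which do not.
TLE3, chr15:70097918-70098167, minus strand: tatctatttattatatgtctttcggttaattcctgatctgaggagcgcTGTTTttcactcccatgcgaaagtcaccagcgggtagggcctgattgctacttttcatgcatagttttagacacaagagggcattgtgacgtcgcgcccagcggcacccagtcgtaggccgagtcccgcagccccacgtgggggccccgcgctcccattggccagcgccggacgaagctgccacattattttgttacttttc
TLE1, chr9:81689548-81689797, minus strand: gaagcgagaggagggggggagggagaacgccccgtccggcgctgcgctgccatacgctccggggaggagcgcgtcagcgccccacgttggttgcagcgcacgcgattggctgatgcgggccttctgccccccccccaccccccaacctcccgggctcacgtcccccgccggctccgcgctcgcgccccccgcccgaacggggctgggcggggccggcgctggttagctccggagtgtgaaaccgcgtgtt
TLE2, chr19:3047636-3047885, minus strand: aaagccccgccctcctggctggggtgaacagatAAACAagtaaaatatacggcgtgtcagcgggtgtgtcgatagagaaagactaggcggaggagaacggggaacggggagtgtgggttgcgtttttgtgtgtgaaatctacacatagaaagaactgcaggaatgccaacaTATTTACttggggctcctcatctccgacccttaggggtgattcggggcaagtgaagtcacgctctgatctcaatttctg
TLE4, chr9:79571715-79571964, plus strand: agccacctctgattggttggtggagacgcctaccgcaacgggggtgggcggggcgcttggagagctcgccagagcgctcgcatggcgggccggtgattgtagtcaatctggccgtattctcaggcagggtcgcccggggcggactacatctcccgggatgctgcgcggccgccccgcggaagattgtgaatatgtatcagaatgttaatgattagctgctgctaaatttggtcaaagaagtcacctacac
RefSeq lists 8 such windows for the 4 genes, and 1 of them, the TLE2 window shown, held a 7-letter match, against 10.6% of all 35116 windows of that length. The core, with or without a 7-letter match in the same window, occurred in 4 of the 8 and in 40.4% of all windows. The TLE1 and TLE4 windows shown held neither. The 8 windows had a median GC content of 65.0%, against 58.0% over all windows. These windows lie on another genome build than the peaks, so no peak was placed on their bases, and no genome of the peaks' build was used here to read the bound sequences themselves.

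FOXA2 bound the wide TLE3 interval at 4 very strong sites and 13 weaker ones, and all 4 strong sites lay outside the gene. Of these, 3 lay together far beyond its 3′ end and 1 lay before its start, while the sites inside the gene scored no more than 15. The score is the authors' tag count of a peak scaled to 10000000 tags per library, here called normalised tags. The 4 sites with scores of 100 or more in each replicate carried 82.0% of the summed score of the 17 shared TLE3 sites in replicate 1 and 82.7% in replicate 2. Over the whole series 1.1% of shared sites reached that score in both replicates, but the interval was chosen for such sites and the 4 of 17 cannot be read against that share.

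**Figure D1:**
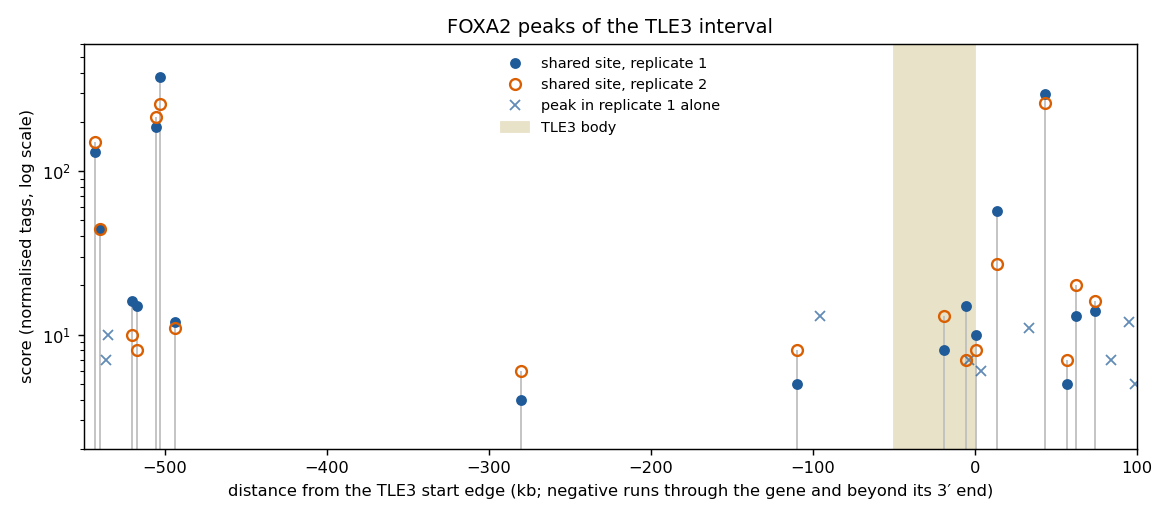
Scores of FOXA2 peaks in the TLE3 interval (y axis, normalised tags, log scale) against the distance from the start edge of TLE3 (x axis, kb). Filled and open circles are shared sites in replicates 1 and 2, crosses are peaks of replicate 1 alone, and the shaded band is the TLE3 body. The 4 sites above 100 stand outside the band, 3 of them 503 to 543 kb from the start edge.

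The strongest site of the far group lay on chromosome 15 at 69887099 to 69887221, 503 kb from the start edge of TLE3. It scored 379 in replicate 1 and 257 in replicate 2, or 318 ± 86.3 (mean ± SD, n = 2). It tied for rank 5 of all 24345 shared sites. Its score was 47.4 times the median peak of replicate 1 and 23.4 times that of replicate 2. A second strong site lay 2.72 kb away, at 69884383 to 69884505, and scored 186 in replicate 1 and 215 in replicate 2 (200.5 ± 20.5, n = 2, rank 44). The first of these sites was the higher one in both replicates.

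The far group continued toward the edge of the interval. The site at 69846933 to 69847055 scored 131 in replicate 1 and 150 in replicate 2 (140.5 ± 13.4, n = 2, rank 132). Beside it, 2.79 kb away, the site at 69849726 to 69849848 scored 44 in both replicates. A weaker pair lay between these and the strongest sites, at 69869335 with 16 in replicate 1 and 10 in replicate 2, and at 69872432 with 15 and 8. The last site of the group, at 69896414, scored 12 and 11. In all, 7 shared sites spanned 49.6 kb, and neighbouring sites alternated between spacings of 2.72 to 3.10 kb and spacings of 9.32 to 19.6 kb. This group carried 64.7% of the interval's summed score over shared sites in replicate 1 and 65.1% in replicate 2.

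Groups of such strength were uncommon in the series. Of the 267 shared sites with at least 100 in both replicates, 24 (8.99%) had another of that score within 50 kb, and 6 (2.25%) had 2 or more others, and the 3 strong sites of the far group are among these. This count was made after the scores were seen, and it describes sites that the choice of the interval had already favoured. Beyond the group, on the side of TLE3, neither replicate had a peak for 214 kb. The next shared site, at 70110025, scored 4 in replicate 1 and 6 in replicate 2, the lowest mean of the 28. A further 170 kb brought the site at 70280298, with 5 and 8.

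The far group is not placed next to TLE3. It lay 444 to 493 kb beyond the 3′ edge of the gene, and in the RefSeq gene order (GRCh38.p14) the stretch between RPLP1, a ribosomal protein gene, and TLE3 holds the long non-coding RNA genes DRAIC, PCAT29 and LINC00593 among others. Which of these genes the group lies in or beside was not analysed here, since the annotation at hand is on another build than the peaks. The name of TLE3 therefore stands for the whole interval and not for the nearest gene of each site.

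Inside TLE3, from 70340 to 70390 kb, lay 2 shared sites and 1 peak of replicate 1 alone. All scored far below the 4 strong sites of the interval. The shared site at 70371193 to 70371315 scored 8 in replicate 1 and 13 in replicate 2 (10.5 ± 3.54, n = 2), and lay 18.7 kb inside the gene from its start edge. The shared site at 70384422 to 70384544 scored 15 in replicate 1 and 7 in replicate 2 (11 ± 5.66, n = 2), 5.52 kb inside. Another peak, at 70386039, scored 7 in replicate 1 and was not called in replicate 2. These values lie near the medians of 8 and 11 of the full lists of replicates 1 and 2.

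Upstream of TLE3 the mean scores of shared sites ran from 6 to 278. The shared site closest to the start edge, 0.948 kb before it at 70390888 to 70391010, scored 10 in replicate 1 and 8 in replicate 2 (9 ± 1.41, n = 2). The site at 70403853 to 70403975, 13.9 kb upstream, scored 57 in replicate 1 and 27 in replicate 2 (42 ± 21.2, n = 2). Its replicate ratio of 2.11 had a counting interval of 1.5 to 2.97, above the median ratio of 1.20 over all shared sites. In both replicates it scored below the 4 strong sites and above the sites inside the gene.

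The second of the 10 strongest sites lay 43.0 kb upstream of TLE3, at 70432958 to 70433080. It scored 296 in replicate 1 and 260 in replicate 2 (278 ± 25.5, n = 2) and had rank 8 of all shared sites. The 3 weaker sites that followed it were at 70446881 with 5 in replicate 1 and 7 in replicate 2, at 70452414 with 13 and 20, and at 70463943 with 14 and 16. The site at 70446881 was 13.9 kb from the strong one, so the strong upstream site had no close partner of the kind seen in the far group. Upstream sites carried 32.6% of the interval's summed score over shared sites in replicate 1 and 31.7% in replicate 2. With 50 kb on each side of the gene in place of the wide flanks, the TLE3 neighbourhood held 5 shared sites in 150 kb, of which this one alone reached 100.

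TLE1, a partner of HES factors in Notch signalling, had 8 shared sites in 207 kb, the most per Mb of the 4 intervals. All scored below 40 in both replicates, so none reached the scores of the 4 strong TLE3 sites. The TLE3 interval has far wider flanks, and with 50 kb on each side TLE3 held 33.3 shared sites per Mb, against 38.6 for TLE1. The lengths of the TLE1, TLE2 and TLE4 intervals exceeded the RefSeq spans of the genes by 101 kb each, which leaves about 50 kb on each side if the flanks are even. A mark 50 kb inside each edge is used below in place of the gene's ends, and the bases of the true hg19 starts were not used. Of the 8 shared sites, 5 lay between the marks, 1 upstream and 2 downstream.

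The strongest TLE1 site was at 84271876 to 84271998 on chromosome 9, 33.1 kb inside the start mark, with 38 in replicate 1 and 33 in replicate 2 (35.5 ± 3.54, n = 2). Its rank was 3272 of 24345. Near the start mark, 3.64 kb inside it, the site at 84301296 to 84301418 scored 29 in replicate 1 and 24 in replicate 2 (26.5 ± 3.54, n = 2). A weaker shared site at 84300863, with 8 and 10, lay only 433 bp from it in replicate 1 and 448 bp in replicate 2. A spacing under 500 bp was seen for 2.53% of all shared sites, and the peak caller needs 244 bp between peaks in replicate 1 and 300 bp in replicate 2. On the other side, at 84301902, replicate 1 alone had a peak of 14, the highest of its 8 unshared TLE1 peaks.

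The upstream TLE1 site at 84332564 to 84332686 was the one on which the replicates differed most in the direction of replicate 2. It scored 16 in replicate 1 and 37 in replicate 2 (26.5 ± 14.8, n = 2), a ratio of 0.432 with a counting interval of 0.291 to 0.643. The called centres lay 81 bp apart there, the widest offset of the 28 sites, against a median of 15 bp over the series. The remaining TLE1 sites were closer in score. The pair at 84150581 and 84153967, near the downstream edge, scored 15 and 19 in replicate 1 and 18 and 19 in replicate 2. The sites at 84203210 and 84225478 scored 13 and 20 in replicate 1 and 9 and 11 in replicate 2.

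TLE2 had a single shared site, of uneven score. At 3022859 to 3022981 on chromosome 19 it scored 16 in replicate 1 and 6 in replicate 2 (11 ± 7.07, n = 2), a ratio of 2.67 with a counting interval of 1.32 to 5.40. It lay 25.1 kb inside the start mark. The other 5 TLE2 peaks were found in replicate 1 alone and scored 4 to 12. The highest, at 3065812 with 12, lay 17.9 kb before the start mark, on the side where RefSeq lists TLE5 (also AES), a short family member that lacks the WD repeats. TLE6, a diverged family member, lies on the other side of TLE2 in that order. A peak of 4, the lowest of the interval, fell 0.126 kb from the start mark, at 3047814. The TLE2 window printed above was the only one of the 8 with a 7-letter forkhead match. That share, 12.5%, is near the 10.6% of all windows, so nothing is read from it.

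TLE4, which can be recruited by PAX5 in B cells, had 2 shared sites in 256 kb and no peak in a single replicate. The site at 82188656 to 82188778 on chromosome 9, 2.72 kb inside the start mark, scored 12 in replicate 1 and 18 in replicate 2 (15 ± 4.24, n = 2). The site at 82207716 to 82207838, 21.8 kb inside, scored 14 and 11 (12.5 ± 2.12, n = 2). The scores of the sites overlap between replicates, and their order reverses from one replicate to the other. No peak lay in the rest of the interval, which continues for 184 kb.

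**Figure D2:**
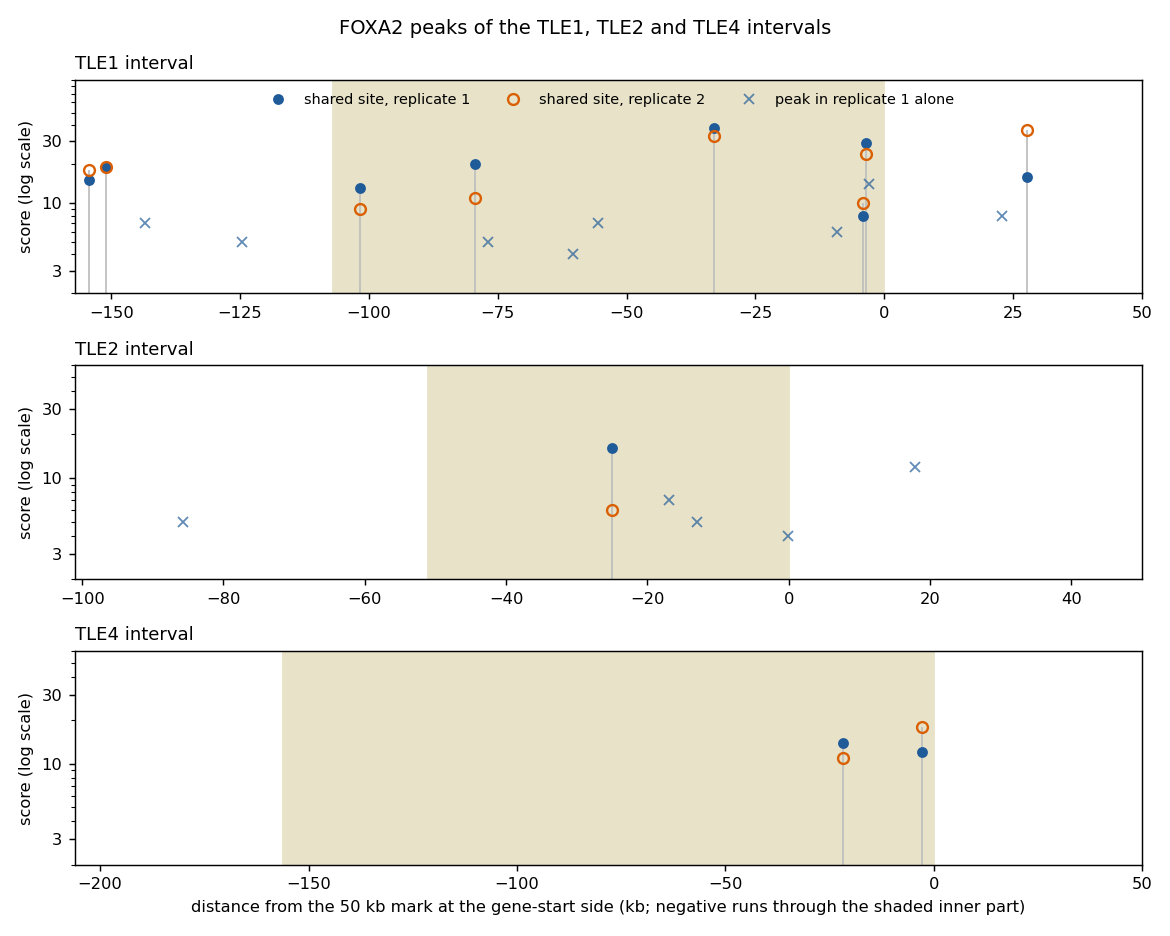
Scores of FOXA2 peaks (y axes, normalised tags, log scale) in the TLE1, TLE2 and TLE4 intervals against the distance from the mark 50 kb inside the interval's edge on the gene-start side (x axes, kb). Filled and open circles are shared sites in replicates 1 and 2, crosses are peaks of replicate 1 alone, and the shaded band runs between the marks. No site reaches 40 in either replicate, and TLE4 has sites only at the start side.

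The intervals differed in how many shared sites they held for their length. The TLE3 interval held 26.2 shared sites per Mb and TLE1 38.6, against 8.59 per occupied Mb over the series (windows of 1 Mb with a peak of either replicate), 9.70 over chromosome 15 and 6.62 over chromosome 9. TLE2 held 6.62 and TLE4 7.81, from 1 and 2 sites, against 5.61 over chromosome 19 and the same 6.62 over chromosome 9. Of all occupied windows as long as the TLE3 interval, 4.63% held 17 or more shared sites, but this interval was drawn around strong sites, so nothing is read from its place among those windows. For TLE1, 3.8% of windows of its length held 8 or more. By contrast 68.5% of windows held at least the 1 site of TLE2 and 52.7% at least the 2 sites of TLE4. With all replicate 1 peaks in place of shared sites, TLE2 stood above the series, with 39.7 against 22.6 per Mb, so its place below the series holds for shared sites and not for replicate 1 alone. On the same count TLE3 held 40.0 and TLE1 77.3 per Mb, both above the series, and TLE4 7.81, below it.

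**Figure D3:**
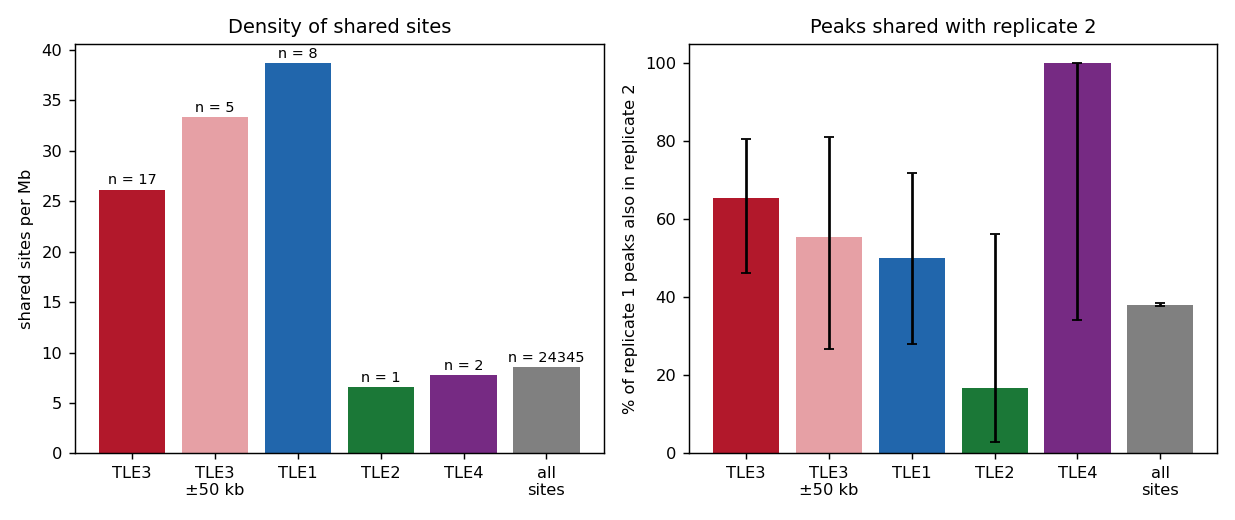
Left, shared sites per Mb in each TLE interval, in TLE3 with 50 kb on each side and over all occupied Mb of the series, with the number of sites above each bar. Right, the percentage of replicate 1 peaks also found in replicate 2, with 95% Wilson intervals of counting error. The bars of TLE3 and TLE1 stand at 26.2 and 38.6 sites per Mb, against 8.59 for all sites, and the intervals on the right are wide for TLE1, TLE2 and TLE4.

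Of the 50 replicate 1 peaks in the 4 intervals, 28 were shared, or 56.0% (95% Wilson interval 42.3% to 68.8%), against 38.1% over the series. The 3 intervals other than TLE3 gave 11 of 24, or 45.8% (27.9% to 64.9%), which includes the share of the series. For TLE3 it was 17 of 26, or 65.4% (46.2% to 80.6%), for TLE1 8 of 16, for TLE2 1 of 6, or 16.7% (3.01% to 56.4%), and for TLE4 2 of 2. The intervals of TLE1 (28.0% to 72.0%), TLE2 and TLE4 (34.2% to 100%) all include the share of the series. TLE3 was chosen for its strong shared sites, so nothing is read from its share or from that of the 4 intervals together. Without the 4 strong sites the TLE3 share was 13 of 22, or 59.1% (38.7% to 76.7%). Nothing is read from this share either, since its peaks come from the same chosen interval. From the side of replicate 2, all 28 peaks were shared, against 90.5% over the series. The 22 peaks of replicate 1 alone scored 4 to 14 with a median of 7, against a median of 6 over all such peaks. Replicate 2 had fewer tags, and the part of depth in their absence was not tested.

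The median score of the TLE3 interval depended on whether weak peaks were counted. With all shared sites the median mean score was 13 (interquartile range 10.5 to 44) for TLE3 and 17.8 (14.4 to 26.5) for TLE1, against 14.5 (9.5 to 24.5) over all shared sites. With only peaks of at least 10 in each list it was 43 for TLE3 against 21 over the series, and with at least 20 it was 170.5 against 38. These cuts left 10 and 6 TLE3 sites, and the interval was chosen for its strong sites, so nothing is read from these medians. The 13 TLE3 sites below 100 had a median of 13 in replicate 1 and 10 in replicate 2, against 16 and 13 over the series. Of the 28 sites, 15 had another shared site within 10 kb, against 39% of all shared sites. Of the 15, 11 lay in the TLE3 interval, which was drawn around strong sites, so nothing is read from this count. The other 4 were among the 8 shared TLE1 sites, and TLE2 and TLE4 had none.

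**Figure D4:**
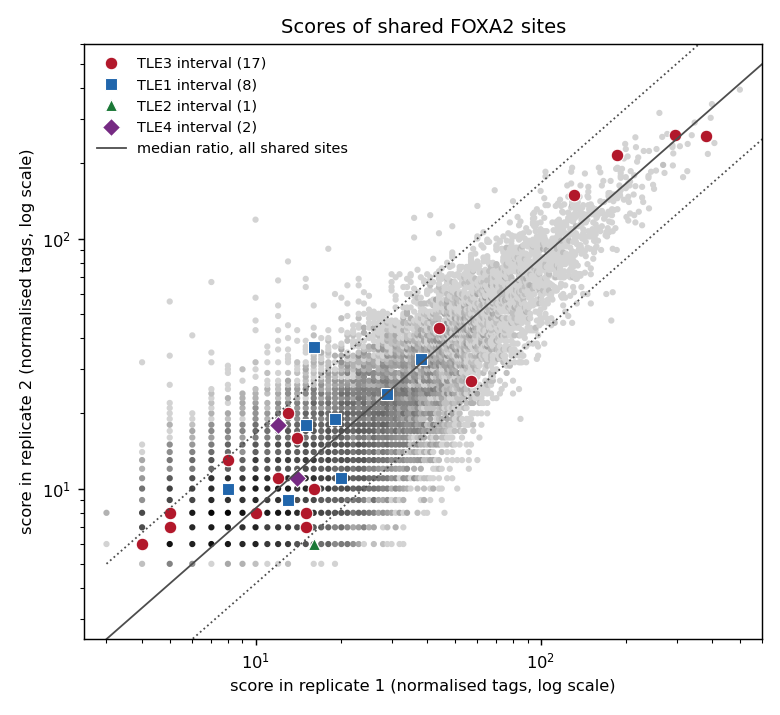
Score in replicate 2 (y axis) against score in replicate 1 (x axis), both in normalised tags on log scales, for the shared sites of the 4 TLE intervals (coloured) over all shared sites (grey, darker where more sites coincide). The solid line is the median ratio over all shared sites and the dotted lines lie 2-fold from it. Of the 28 TLE sites, 1 TLE1 and 1 TLE2 site fall outside the dotted lines.

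The replicates gave similar scores at most TLE sites. Of the 28, 14 scored higher in replicate 1, 12 lower and 2 equal, against 63.7% higher in replicate 1 over the series. The median log2 ratio of replicate 1 to replicate 2 was 0.06 over the 28 sites, against 0.26 over all shared sites, and the site-to-site SD was 0.64 against 0.62. More than 2-fold from the series' median ratio lay 2 of the 28 sites, or 7.14%, the TLE1 site at 84332564 and the TLE2 site at 3022859, against 9.77% over the series. Among the 4 strong TLE3 sites the ratio ran from 0.865 to 1.47, with 2 higher in replicate 1 and 2 higher in replicate 2.

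Values at the edges of the intervals show what their limits decide. The outermost site of TLE3 on the far side, with 131 in replicate 1 and 150 in replicate 2, lay 6.99 kb inside the edge, and the next shared site, 23.1 kb outside, scored 17 and 9. On the upstream side the site 26.0 kb inside scored 14 and 16, and the one 54.1 kb outside scored 21 and 11. For TLE1 the sites just inside scored 15 and 18 at one edge and 16 and 37 at the other, and those just outside 11 and 15, and 10 and 7. For TLE2 the nearest outside scored 8 and 6 at 52.1 kb and 13 and 16 at 613 kb. For TLE4 the site 31.3 kb outside its start side scored 14 and 18.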

How the data were processed

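FOXA2 ChIP-seq in Caco2 cells was analysed from the peak lists of 2 replicates. Reads were aligned to hg19, with Bowtie 1.0.0 and HOMER 1.2 as the tools named, per the submitters' processing notes. The authors called peaks with HOMER findPeaks in its factor style for each replicate alone, against input, per the file headers, at 4-fold over input and over the surrounding 10000 bp, with a Poisson p-value of 0.0001 and a false discovery rate of 0.001. Peak width is 123 bp in the replicate 1 list and 151 bp in the other. The deposited score is the authors' tag count scaled to 10000000 tags and rounded. By the library totals that the headers give, a unit stands for 2.62 tags in the first list and 1.58 in the second, and multiplied back the summed score was 0.45% and 0.196% above the header's tags in peaks. The count behind the score is otherwise not given.

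A shared site is a replicate 1 peak overlapping a replicate 2 peak by at least 1 bp, given at its replicate 1 position, 1-based. Ranks are of the mean of the ranks in both replicates. Intervals of shares are 95% Wilson intervals and those of ratios are Poisson intervals of the tags at the same level. Both cover counting error only. No test was run, since 2 replicates of 1 condition allow none and sites are not replicates. Sites named are the 10 best-ranked of TLE3, the 3 best of each other interval, all inside TLE3, the top single-replicate peaks and the edges, with further sites added after their values were seen. The members and lists were chosen with earlier results of these data known. Python 3.11.15, numpy 2.4.6 and pandas 2.3.3 were used, and the overlap step was tested on simulated data. Gene order, span lengths and promoter sequences came from RefSeq on GRCh38.p14. Bound-sequence motifs and the other genes of the pathway were not analysed here, since both need an hg19 genome or annotation. The input library's own values were not used here.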

Additional observations from a re-analysis of the deposited data

How the results depend on the processing

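Of 167 alternative values over the 4 intervals and each gene, 128 stayed within their limits (1.5 times for counts, otherwise the replicate or counting spread) and 39 moved. Of those that moved, 15 belong to TLE1, TLE2 or TLE4 alone. Counts and densities of the same sites were both included, under different limits, so these totals are no measure of stability. For TLE2, with a score of at least 10, the fall from 1 shared site to 0 counted as moved. The same fall in density, from 6.62 to 0 per Mb, stayed within its limits. The other overlap rules, a reciprocal overlap of 50% and midpoints within 100 bp or 500 bp, moved a single result of the 4 intervals together or of TLE3, the median mean score of the 4 intervals, to 14. With a score of at least 10 in each list the shared sites numbered 18 in all and 10 for TLE3 (15.4 per Mb). Their median mean scores were 22.8 in all and 43 for TLE3, against 21 over the series. With at least 20 the shared sites numbered 8 in all (6.33 per Mb) and 6 for TLE3 (9.23 per Mb). The medians were then 92.3 and 170.5, and the shared percentages 88.9% and 100%. Because the TLE3 interval was chosen for its strong sites, nothing is read from these medians and percentages. TLE2 had no shared site at a score of 10 and no peak at 20. TLE4, with scores of at most 18, had no peak at 20 either, so neither gave a value at that cut. With 50 kb on each side of TLE3 there were 16 shared sites in all and 5 for TLE3, with a TLE3 median of 11. Leaving out either replicate, so that the list of the other stands alone, gave 28 to 50 sites in all and 17 to 26 for TLE3, densities of 22.2 to 39.6 and 26.2 to 40.0 per Mb (9.5 to 22.6 over the series), medians of 12 to 14.5 and 12 to 13, and ranks of 6 to 9 for the strongest TLE3 site. The fewer or added peaks of each list account for the counts by construction, and the cause was otherwise not tested. The strongest TLE1 site had rank 3887 in replicate 1 alone. No paired analysis was possible because there is a single group of 2 immunoprecipitations. The score's unit and the depth of replicate 2 limit what can be read from sites below about 10.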

Other observations

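TLE4 and TLE1 lie on the same arm of chromosome 9, and FOXA2 sites were sparse between them. From the last shared TLE4 site, at 82207716, the next shared site was 1925 kb away, against a median spacing of 38.8 kb between neighbouring shared sites. Of 24321 such spacings, 84 (0.345%) were at least as long, and these include spacings over stretches that hold no peaks. In the 1756 kb between the TLE4 and TLE1 intervals, replicate 1 had 3 peaks and replicate 2 had 1, with scores of at most 12 and 15, and the 1 shared site lay 15 kb from the TLE1 interval. This stretch was chosen after its values were seen, and how much of it can be mapped by short reads was not tested.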
